A study of Mus musculus with 12 samples.

Results

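The genes examined are the members of the STAT and JAK families that RNA-seq measured in activated, Th17-polarized and iTreg-polarized mouse CD4+ T cells: Stat2, Stat3, Stat4, Stat5a, Stat5b, Stat6, Jak1, Jak2 and Jak3. They were chosen by gene symbol, and all 9 were found among the 11247 genes listed in either of the 2 deposited tables and passed the filter on low values in both. The cells were naive CD4+CD62L+ T cells from the spleens of 8- to 10-week-old C57BL/6 mice, and every culture was activated for 3 d with 1 µg/mL plate-bound anti-CD3 and 1 µg/mL anti-CD28. Th0 cultures received nothing more. Th17 cultures also received 30 ng/ml IL6, 5 ng/ml TGFβ1, and neutralizing anti-IL4 and anti-IFNγ at 10 µg/mL each, and iTreg cultures 10 ng/ml IL2 and, by the sample labels, 10 ng/ml TGFβ1, for which the methods of the study state a higher concentration. Each group had 4 independent cultures, which makes 12 libraries, and each polarized group stands in a table with the same 4 Th0 libraries.

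Cytokine receptors without kinase activity of their own carry Janus kinases (JAKs) on their cytoplasmic tails. A bound cytokine brings the JAKs together, they phosphorylate the receptor and the signal transducers and activators of transcription (STATs) that dock on it, and STAT dimers move to the nucleus and bind DNA. In helper T cells, IL6, IL21 and IL23 signal mainly through STAT3 toward the Th17 fate, IL2 through STAT5 toward Foxp3 expression, IL12 through STAT4 toward Th1, and IL4 through STAT6 toward Th2. This signaling runs through phosphorylation, and the values given here are mRNA levels only.

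In the mouse genome (GRCm38, the build called mm10), 3 of the STAT genes lie side by side on chromosome 11. Stat5b, on the minus strand at chr11:100780731-100850724, is followed after 8626 bases by Stat5a, on the plus strand at chr11:100859351-100885169, and the end of Stat5a overlaps by 72 bases the end of Stat3, on the minus strand at chr11:100885098-100939540. Stat6 (chr10:127642986-127660957) and Stat2 (chr10:128270559-128292849) lie on the plus strand of chromosome 10, and Stat4 (chr1:51987148-52107189) on the plus strand of chromosome 1. Of the kinases, Jak1 (chr4:101152367-101265282) is on a minus strand, and Jak2 (chr19:29251828-29313080) and Jak3 (chr8:71676296-71690575) are on plus strands. Reads were counted on exons without regard to strand, and 26.7% of the exonic bases of Stat4 are shared with the transcript Gm28177 and 7.55% of those of Jak3 with Insl3, so the levels of these genes are less certain. Stat5a and Stat5b are near copies of each other. They had 265 stretches of 100 bases in common, which is 3.44% of those of Stat5a and 4.79% of those of Stat5b, and no other pair of the 9 genes had any.

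Promoters of the 3 genes below are shown because Stat3 and Stat4 changed most in Th17 cells. Another reason is that Stat2 and Stat4 were the members whose promoters matched a motif searched for. They are the 250 bases upstream of the RefSeq transcription start in GRCm38.p6, 5′ to 3′ along the gene's strand. Capitals mark matches to the letters TTC and GAA spaced by 4 bases of any kind, the spacing that STAT6 prefers, and to the core of the interferon-stimulated response element, GAAA and GAAA spaced by 2 bases of any kind, on either strand. The Stat3 window is chr11:100939541-100939790 on the minus strand, the Stat2 window chr10:128270248-128270497 on the plus strand, and the window of the second RefSeq start of Stat4 chr1:52007990-52008239 on the plus strand.
Stat3: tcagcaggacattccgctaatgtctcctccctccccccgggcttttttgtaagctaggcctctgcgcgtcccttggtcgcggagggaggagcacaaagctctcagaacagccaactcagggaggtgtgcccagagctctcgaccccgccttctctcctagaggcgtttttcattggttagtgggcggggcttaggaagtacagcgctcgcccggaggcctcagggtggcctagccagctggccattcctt
Stat2: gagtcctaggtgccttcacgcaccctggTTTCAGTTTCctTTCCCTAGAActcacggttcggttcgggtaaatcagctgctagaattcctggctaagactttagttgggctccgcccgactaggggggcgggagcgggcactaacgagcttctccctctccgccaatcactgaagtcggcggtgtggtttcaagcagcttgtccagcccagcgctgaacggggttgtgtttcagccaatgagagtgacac
Stat4: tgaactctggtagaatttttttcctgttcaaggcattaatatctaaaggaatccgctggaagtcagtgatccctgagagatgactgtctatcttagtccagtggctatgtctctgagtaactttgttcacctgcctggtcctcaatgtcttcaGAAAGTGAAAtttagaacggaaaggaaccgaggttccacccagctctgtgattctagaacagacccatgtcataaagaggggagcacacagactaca

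All 9 genes had a promoter sequence, with 12 windows between them. The interferon-γ-activated site TTCNNNGAA, to which most STAT dimers bind, was in none of these windows and in 7.02% of the 32851 promoter windows of all genes. The form with 4 spacing bases was in 1 of the 12 windows, that of Stat2, and in 5.85% of all windows. The interferon-stimulated core was in 2 of the 12, that of Stat2 and the second of Stat4, and in 2.98% of all windows. In Stat2 the interferon-stimulated core (TTTCAGTTTC, read on the other strand) begins at -222 from the start and the spaced palindrome (TTCCCTAGAA) at -210, and in Stat4 the core (GAAAGTGAAA) begins at -97. These are matches of letters only, and binding of a STAT protein was not measured in these libraries.

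Values are FPKM, a read measure corrected for the length of the transcript and the size of the library, and libraries are named by the beginnings of their column headings, M22, M29, M42 and M43, which recur in each group. Read counts are not in the tables. Relative depth, read from the steps between low FPKM values, ran from 0.825 to 1.19 times that of the median library of a table. The Th0 libraries carry values 0.988 to 0.991 times as high in the iTreg table as in the Th17 table. The summed FPKM of the 6 measured CD4 T cell markers was 948 or more in every library, the Cd8b1 level at most 6.60 FPKM and that of the B cell gene Cd79a at most 3.84 FPKM, and no marker of NK or red blood cells was listed. Th17 culture markers summed to 504 to 1057 FPKM in Th17 against 15.7 to 28.8 FPKM in Th0 libraries, and iTreg culture markers to 446 to 712 FPKM in iTreg against 129 to 222 FPKM in Th0 libraries. These lists did not tell the polarized cultures apart fully. The iTreg culture markers summed to 372 to 585 FPKM in Th17 libraries, and the 3 Th17 culture markers listed in the iTreg table to 132 to 195 FPKM in iTreg libraries. A single Th17 library stood apart in the markers. M43 held 42.5 FPKM of Foxp3, the master regulator of regulatory T cells, where the other Th17 libraries held 0.499, 0.502 and 4.50 FPKM. In bulk RNA, fewer cells of a type and less RNA per cell cannot be told apart.

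The Th17 and iTreg cultures shared a large fall of Stat4 and rises of Stat3 and Stat5b, whereas Stat2 and Jak3 passed the test as higher only in the Th17 and Stat5a only in the iTreg comparison. With libraries of like column headings as a block, Stat5a was also called higher in Th17 (adjusted p = 0.0065) and Stat2 in iTreg cells (adjusted p = 0.027). Whether a change differed between the comparisons was not tested. Of the 9 genes, 5 passed the test in Th17 cells (4 higher, 1 lower) at a false discovery rate of 0.05, where 19.3% of the 10269 genes tested did (10.6% higher, 8.69% lower). In iTreg cells 4 passed (3 higher, 1 lower), where 16.6% of the 10208 genes tested did (8.36% higher, 8.21% lower). Polarized and Th0 libraries had separate ranges for 5 members in Th17 cells (4 above Th0, 1 below) and 5 in iTreg cells (3 above, 2 below). Among all genes this was so for 23.8% in Th17 (13.2% above, 10.6% below) and 22.8% in iTreg cells (11.7% above, 11% below). Both comparisons use the same Th0 libraries and are therefore not independent of each other. Fold changes below are log2 of (FPKM + 1) with their standard error (SE), which understates the changes of genes at low FPKM, and adjusted p-values are from limma with Benjamini-Hochberg adjustment over all genes tested.

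**Figure D1:**
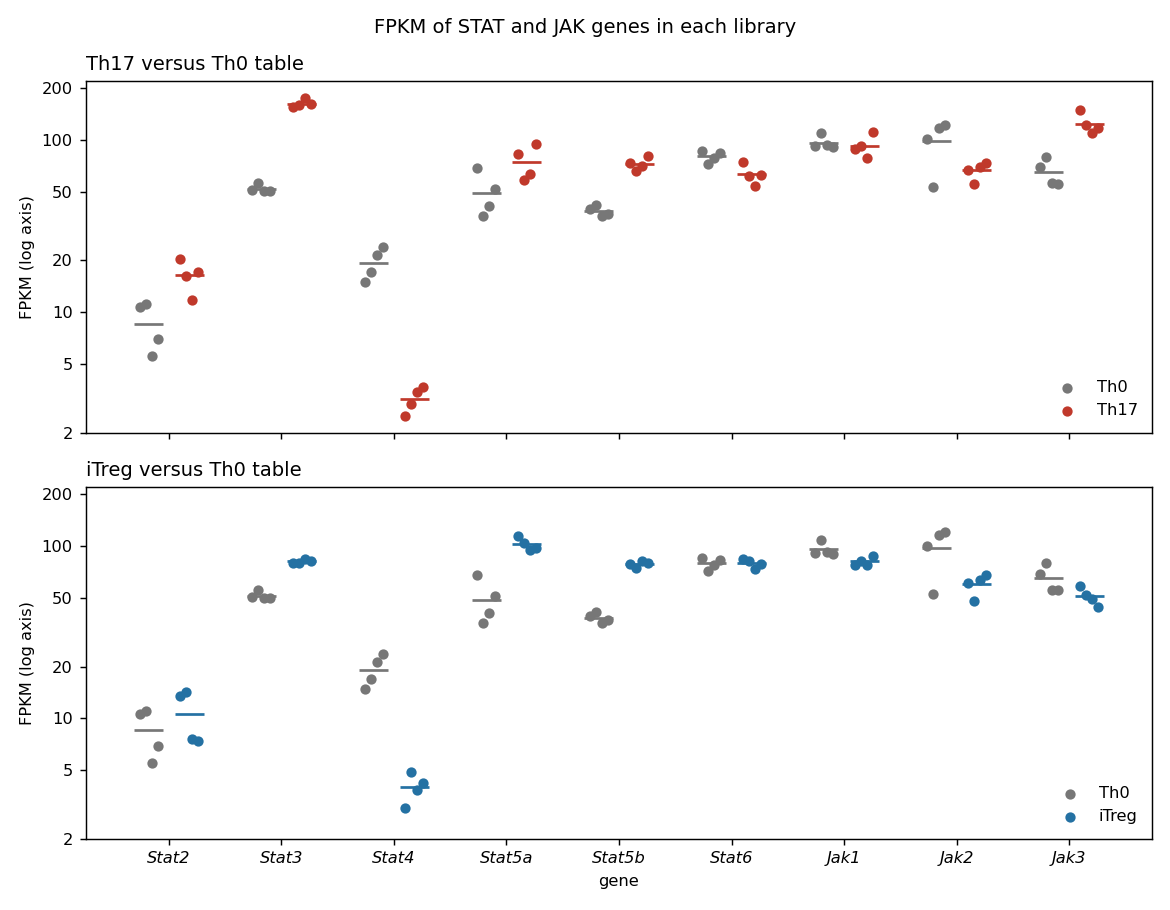
FPKM (log axis) of the 9 genes in each library, for the Th17 table (upper panel) and the iTreg table (lower panel). Points are single libraries in the order M22, M29, M42 and M43, bars are means of 4, and Th0 is gray. Stat4 lies between 2.51 and 4.86 FPKM in all polarized libraries and at 14.8 FPKM or more in Th0, while Stat3 reaches 156 to 174 FPKM in Th17 libraries.

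Stat3, which conveys the IL6 signal, rose most of the 9 genes in Th17 cells. It stood at 156, 159, 174 and 163 FPKM in the Th17 libraries M22, M29, M42 and M43, and at 51.3, 56.2, 50.8 and 50.5 FPKM in the Th0 libraries in the same order. The lowest Th17 library was thus far above the highest Th0 library. The mean was 163 ± 8.13 FPKM (SD, n = 4) against 52.2 ± 2.70 FPKM (SD, n = 4), a 3.12-fold rise. On the log2 scale this was 1.62 ± 0.09 (SE), with an adjusted p of 1.1e-05. In iTreg cultures, which were not given IL6, Stat3 was at 79.9, 79.3, 84.5 and 82.5 FPKM, again above every Th0 library of that table, which held 50.7, 55.7, 50.2 and 49.9 FPKM. This rise was smaller, with a log2 fold change of 0.65 ± 0.08 (SE, adjusted p = 0.0011) and a mean 1.58-fold higher. Th17 and iTreg libraries were scaled in separate tables and were not tested against each other.

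Stat4, the transducer of IL12 in Th1 cells, fell in both cultures and was the member that changed most. It was at 15.0, 17.2, 21.5 and 23.9 FPKM in Th0 libraries and at 2.51, 2.92, 3.44 and 3.69 FPKM in Th17 libraries. No library overlapped, and the mean fell from 19.4 ± 4.03 to 3.14 ± 0.529 FPKM (SD, n = 4). This fall was -2.29 ± 0.16 on the log2 scale (SE, adjusted p = 4.3e-05). The iTreg libraries held 3.01, 4.86, 3.83 and 4.20 FPKM, also below every Th0 library, and the log2 fold change was -2.01 ± 0.17 (SE, adjusted p = 0.00014). In Th0 cells the mean of Stat4 ranked at the 62.7th percentile of the genes in the Th17 table, and in Th17 cells at the 19.3rd. The authors counted in the union mode of HTSeq, which drops reads that touch exons of more than 1 annotated gene, and whether Gm28177 was in their annotation is not stated.

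The STAT5 genes encode the transducers of IL2, and both were higher in iTreg cells. Stat5a stood at 114, 105, 95.5 and 97.4 FPKM in iTreg libraries, all above the Th0 libraries at 67.6, 35.8, 40.8 and 51.0 FPKM. Its log2 fold change was 1.10 ± 0.19 (SE, adjusted p = 0.0046), with a mean of 103 ± 8.57 against 48.8 ± 14.05 FPKM (SD, n = 4). Th17 libraries held 83.0, 58.7, 63.8 and 94.5 FPKM and overlapped with Th0 libraries at 68.4, 36.1, 41.3 and 51.6 FPKM, since the Th0 library M22 was above 2 of the Th17 libraries. There the log2 fold change of Stat5a was 0.61 ± 0.22 (SE, adjusted p = 0.096), which missed the threshold. With libraries of the same heading beginning taken as a block, the adjusted p was 0.0065, and without the Th0 library M22 it was 0.042 (0.042 to 0.21 over the libraries left out in turn). Stat5a was higher in the Th17 library in 4 of 4 heading beginnings, and the 2-sided exact permutation test of 4 libraries against 4 gave p = 0.086.

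Stat5b varied less between libraries than Stat5a and rose in both cultures. It was at 74.0, 66.2, 70.8 and 81.3 FPKM in Th17 libraries against 39.8, 41.96, 36.1 and 37.5 FPKM in Th0 libraries, with no overlap and a log2 fold change of 0.89 ± 0.10 (SE, adjusted p = 0.00045). The iTreg libraries held 78.8, 74.2, 82.1 and 80.0 FPKM and gave a log2 fold change of 1.02 ± 0.09 (SE, adjusted p = 0.00016). Hence the means of Stat5b were 1.88-fold higher in Th17 and 2.05-fold higher in iTreg than in Th0 cells.

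Stat2, which together with IRF9 conveys type I interferon signals, was the STAT gene with the lowest level in Th0 cells. It was at 10.7, 11.2, 5.58 and 7.02 FPKM there and at 20.5, 16.2, 11.8 and 17.2 FPKM in Th17 libraries, which did not overlap. The log2 fold change was 0.88 ± 0.23 (SE, adjusted p = 0.030). This call was kept in 3 of the 8 fits that left out a library and lost in 5, where the adjusted p was 0.067 without the Th0 library M42, 0.085 without Th0 M43, 0.085 without Th17 M22, 0.069 without Th17 M29 and 0.071 without Th17 M43, and the range over all 8 was 0.017 to 0.085. In iTreg libraries Stat2 was at 13.5, 14.2, 7.55 and 7.35 FPKM, of which M22 and M29 lay above all Th0 libraries of that table (10.5, 11.1, 5.52 and 6.94 FPKM) and M42 and M43 within their range. M22 and M29 were the higher pair and M42 and M43 the lower pair in both groups. The log2 fold change was 0.28 ± 0.27 (SE, adjusted p = 0.56). Stat2 was higher in 4 of 4 heading beginnings, and 0.027 was the adjusted p with the heading block.

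Stat6, the transducer of IL4, was measured at 86.6, 72.7, 78.3 and 84.2 FPKM in Th0 libraries and at 74.5, 61.7, 54.2 and 62.9 FPKM in Th17 libraries. Only the Th17 library M22 reached into the Th0 range. The log2 fold change of -0.35 ± 0.12 (SE) had an adjusted p of 0.080, with the heading block 0.023, and without the Th17 library M22 0.049 (0.049 to 0.18 over the libraries left out in turn). In iTreg cells Stat6 was at 83.7, 81.7, 73.2 and 78.7 FPKM, with a mean of 79.3 ± 4.56 against 79.5 ± 6.04 FPKM in Th0 cells (SD, n = 4). The adjusted p of this comparison was 0.99.

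Jak3, the kinase bound to the common γ chain of the receptors for IL2, IL4, IL7, IL9, IL15 and IL21, was the only kinase of the 3 that passed the test. Th17 libraries held 149, 122, 110 and 117 FPKM, all above the Th0 libraries at 69.9, 80.2, 56.4 and 55.9 FPKM. The mean was 1.90-fold higher (125 ± 17.2 against 65.6 ± 11.7 FPKM, SD, n = 4). Its log2 fold change was 0.92 ± 0.15 (SE, adjusted p = 0.0033). The iTreg libraries stood at 58.9, 51.9, 49.2 and 44.4 FPKM and overlapped with Th0 libraries at 69.0, 79.5, 55.7 and 55.3 FPKM. There the log2 fold change was -0.33 ± 0.15 (SE, adjusted p = 0.17), and it was negative in 4 of 4 heading beginnings, with an adjusted p of 0.025 under the heading block.

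Jak2, which serves receptors such as those of IFNγ, IL12 and IL23, was the member that varied most between Th0 libraries. It was at 101, 53.2, 117 and 123 FPKM there, so that the Th0 library M29 had less than any Th17 library. Th17 libraries held 67.2, 55.5, 70.03 and 73.9 FPKM, and the log2 fold change was -0.49 ± 0.25 (SE, adjusted p = 0.22). With the heading block the adjusted p was 0.038, and without the Th0 library M29 the log2 fold change was -0.76 with an adjusted p of 0.0070 (0.0070 to 0.43 over all leave-outs). The M29 libraries alone gave 0.062, the other heading beginnings -0.58 to -0.74. In iTreg libraries Jak2 was at 61.1, 48.1, 63.2 and 67.6 FPKM, with a log2 fold change of -0.63 ± 0.26 (SE, adjusted p = 0.13), and the adjusted p was 0.0092 with the heading block. Leaving out the Th0 library M29 gave -0.90 and an adjusted p of 0.0055 (0.0055 to 0.27 over all leave-outs).

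Jak1, which is shared by the γ chain, gp130 and interferon receptors, stayed within a narrow range. Th0 libraries held 92.3, 110, 93.7 and 90.8 FPKM and Th17 libraries 88.5, 92.3, 78.5 and 112 FPKM, with a log2 fold change of -0.07 ± 0.13 (SE, adjusted p = 0.76). The iTreg libraries were at 77.7, 82.4, 77.9 and 87.9 FPKM, all just below the lowest Th0 library of that table at 89.7 FPKM. This difference did not pass the test, with a log2 fold change of -0.22 ± 0.10 (SE, adjusted p = 0.16), while the exact permutation p was 0.029, the smallest that 4 libraries against 4 can give.

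**Figure D2:**
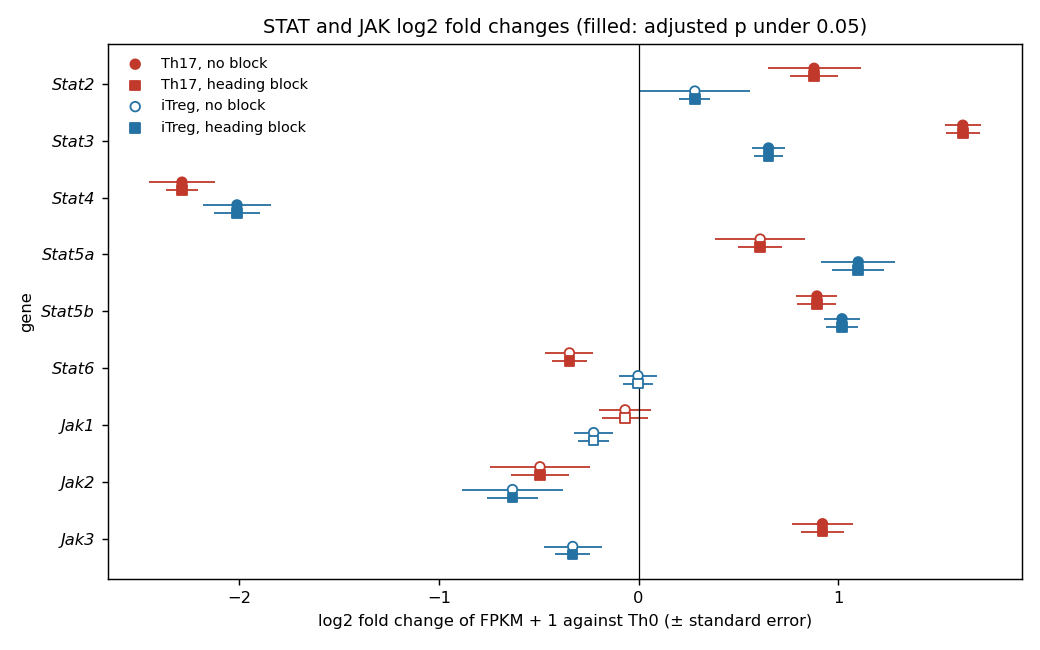
Log2 fold change (x axis, FPKM + 1 against Th0) with its standard error for each gene, in Th17 (red) and iTreg (blue) cells. Circles are the comparison without a block and squares that with libraries of the same heading beginning as a block, and filled symbols have an adjusted p under 0.05. Jak3 lies at 0.92 in Th17 and at -0.33 in iTreg cells, and the block fills 3 more symbols in each comparison.

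Libraries with the same heading beginning deviated together, and the block lowered the SE of every member in both comparisons, from 0.16 to 0.082 for Stat4 in Th17 cells and from 0.27 to 0.077 for Stat2 in iTreg cells, for example. Under the block 8 members passed in Th17 cells (5 higher, 3 lower), where 37.8% of all genes did (19.2% higher, 18.6% lower), and 7 in iTreg cells (4 higher, 3 lower), where 40.9% of all genes did (20.9% higher, 20% lower). Stat5a, Stat6 and Jak2 were the additional genes in Th17 cells and Stat2, Jak2 and Jak3 those in iTreg cells. All members that had passed without the block passed with it.

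**Figure D3:**
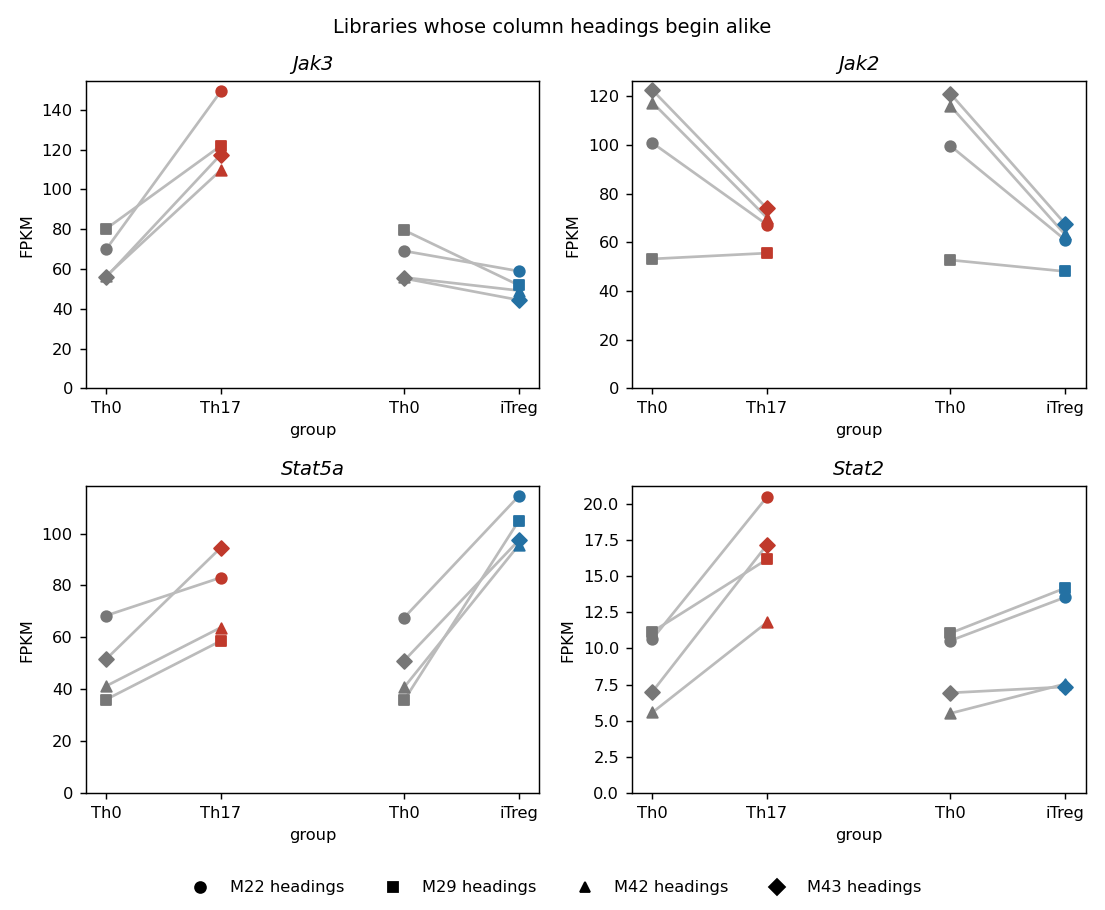
FPKM (y axis) of Jak3, Jak2, Stat5a and Stat2 in the groups of each table (x axis), with lines between libraries whose column headings begin alike and a symbol for each beginning. Jak3 rises along all 4 lines to Th17 and falls along all 4 to iTreg cells, and the M29 line of Jak2 is nearly flat because its Th0 library holds 53.2 FPKM.

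The order of the levels, which FPKM gives per transcript length, changed with polarization. In Th0 cells Jak2 (98.5 ± 31.6 FPKM) and Jak1 (96.7 ± 8.93 FPKM) led and overlapped with each other, and Jak1 was separate from Stat6 (80.4 ± 6.21 FPKM), the next. From Stat6 through Jak3, Stat3 and Stat5a to Stat5b, each overlapped with its neighbor. Stat4 and then Stat2 were lowest, each apart from its neighbor above. Stat3 was the highest of the 9 genes in Th17 cells and was separate from Jak3, the next, and Stat4 was below Stat2. In iTreg cells Stat5a was the highest and separate from Stat3, after which Stat3, Jak1, Stat6 and Stat5b lay between 78.8 and 81.5 FPKM in the mean and overlapped from one to the next.

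Summed over the 6 STAT genes, FPKM was 394 ± 27.1 in Th17 and 249 ± 18.03 in Th0 cells, and 357 ± 11.9 in iTreg cells against 246 ± 17.6 in Th0 cells of the same table (SD, n = 4). Stat3 made up 41.5% ± 3.93 of this sum in Th17, 21.1% ± 2.21 in Th0 and 22.9% ± 1.35 in iTreg cells (SD, n = 4). The share of Stat5a was 18.9% in Th17, 19.6% in Th0 and 28.8% in iTreg cells, and that of Stat6 was 16.1%, 32.3% and 22.2%. Stat4 contributed 7.85% in Th0 cells and 0.799% and 1.12% in Th17 and iTreg cells. STAT3 and STAT5 are known to act against each other at the Il17 locus, so the ratio of their mRNAs was also followed. Stat3 over the sum of Stat5a and Stat5b was 0.926 to 1.30 in Th17 libraries, above all Th0 libraries at 0.474 to 0.720, and 0.414 to 0.476 in iTreg libraries, which overlapped with Th0 by 1 library.

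The 3 JAK genes together were at 284 ± 23.6 FPKM in Th17 and 261 ± 11.9 FPKM in Th0 cells, with overlap, and at 193 ± 7.96 FPKM in iTreg cells against 258 ± 11.4 FPKM in Th0 cells of the same table, without overlap (SD, n = 4). The ratio of Jak3 to Jak1 was 1.05 to 1.69 in Th17, 0.602 to 0.757 in Th0 and 0.505 to 0.758 in iTreg libraries. These sums and ratios are given as descriptions without a test.

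**Figure D4:**
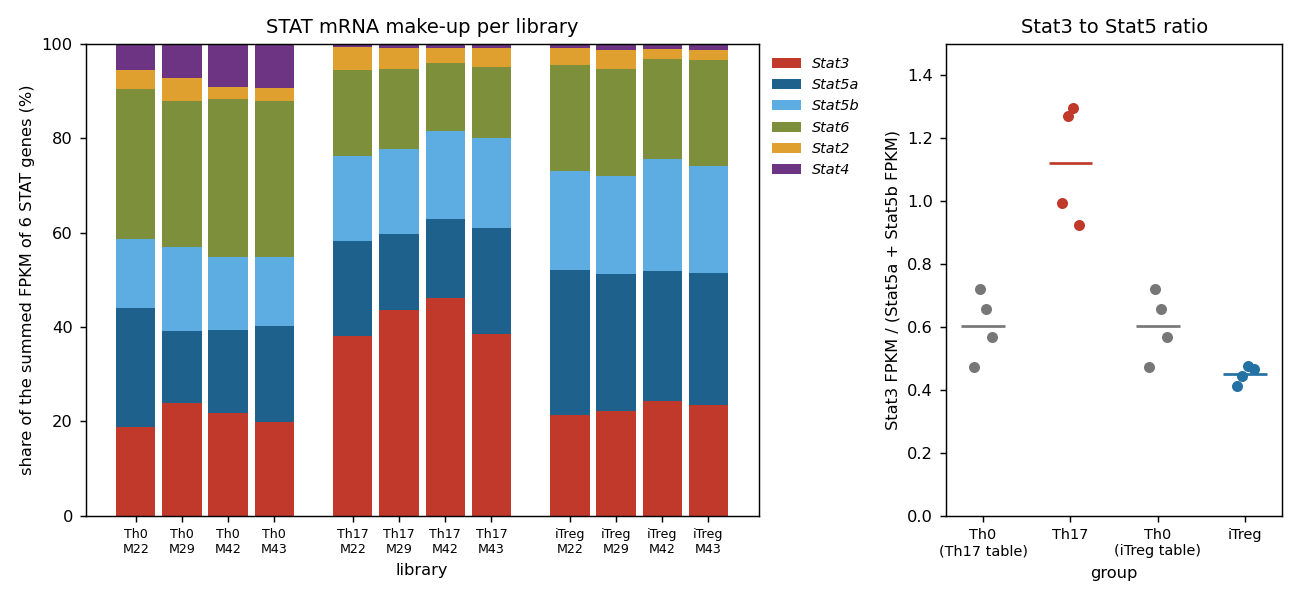
Left, share (%) of each STAT gene in the summed FPKM of the 6 STAT genes, a bar per library. Right, ratio of Stat3 to the sum of Stat5a and Stat5b per library, with bars at the means of 4. The Stat3 share runs from 38.0% to 46.1% in Th17 libraries and from 18.9% to 24.4% in the Th0 and iTreg libraries, and the mean Stat4 share is 0.799% in Th17 and 1.12% in iTreg cells.

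The genes whose pattern over the 8 libraries of a table was most like that of the member with the smallest adjusted p were Ahr (Pearson r = 0.998), Il21 (0.998) and Il17f (0.996) for Stat3 in the Th17 table. They were Atxn1, Tmem229b and Akt2 (each 0.989) for Stat4 in the iTreg table. These correlations mainly follow the difference between the groups that the libraries share and are given as descriptions.

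The other genes of the pathway were taken from lists of ligands, receptors, inhibitors and target genes. Of the 19 ligands listed, 5 were tested in each comparison. In Th17 cells 3 of these passed (2 higher, 1 lower), where 19.3% of all genes tested did. In iTreg cells 3 passed as well (2 higher, 1 lower), where 16.6% of all genes tested did. Il21 in the Th17 and Il9 in the iTreg comparison had Th0 means of 0.109 and 0.197 FPKM. Both passed the filter on low values only through the polarized libraries. Il10, at 1.18 ± 1.69 FPKM in Th0 cells (SD, n = 4), also needed the Th17 libraries to pass it. These 3 genes could therefore hardly be called lower. Il2, the cytokine that signals through Jak1, Jak3 and STAT5, fell in both, from 38.1 ± 15.6 to 4.05 ± 1.18 FPKM in Th17 cells (log2 fold change -2.88, adjusted p = 0.00030) and from 37.6 ± 15.4 to 2.43 ± 1.21 FPKM in iTreg cells (-3.47, adjusted p = 0.00035, SD, n = 4). Il21, a STAT3-activating cytokine, was at 0.109 ± 0.0463 FPKM in Th0 and at 74.1 ± 13.5 FPKM in Th17 cells, and Il10 also rose there (3.90). In iTreg cells Il9 (5.23) and Osm (1.04) rose, where the values in parentheses are log2 fold changes.

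Receptor genes passed in 9 of 19 cases in Th17 cells (7 higher, 2 lower, median log2 fold change 0.32, where the median of all genes was -0.00071) and in 4 of 18 in iTreg cells (3 higher, 1 lower, median 0.17 against 0.011 for all genes). Across all genes tested, 19.3% passed in Th17 and 16.6% in iTreg cells. The largest rises in Th17 cells were those of Il7r (2.47), Il4ra (2.02) and Il23r (1.64), and Il15ra (-1.16) and Ifnar1 (-0.72) fell. Il23r passed the filter on low values only through the Th17 libraries. Leave-outs of the Th0 libraries M22 and M43 gave adjusted p-values of 0.0504 and 0.0503 for Ifnar1. In iTreg cells the α and β chains of the IL2 receptor rose most, with Il2ra at 442 ± 112 FPKM against 133 ± 43.9 FPKM (SD, n = 4, log2 fold change 1.76, adjusted p = 0.0030) and Il2rb (1.35), followed by Ifngr2 (1.17), while Il15ra (-0.93) fell. Il2ra (1.10) and Il2rb (1.51) also rose in Th17 cells. Il2rg, the γ chain that carries Jak3, had log2 fold changes of -0.65 in Th17 and -0.49 in iTreg cells with adjusted p-values of 0.30 and 0.43, and of 0.0014 and 0.0033 with the heading block. It was named after its values had been seen. With the heading block 9 of the 18 receptor genes passed in iTreg cells (5 higher, 4 lower), where 40.9% of all genes did.

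Among the inhibitors, Socs3, which curbs gp130 and STAT3 signaling and is itself induced by STAT3, rose in Th17 cells from 2.93 ± 0.376 to 72.9 ± 38.7 FPKM (SD, n = 4, log2 fold change 4.12, adjusted p = 3.4e-05). Socs2 and Cish, which are induced by STAT5 and restrain it, rose in iTreg cells from 14.9 ± 6.61 to 151 ± 36.6 FPKM (3.31, adjusted p = 0.00016) and from 61.0 ± 22.6 to 215 ± 12.3 FPKM (1.90, adjusted p = 0.0030). Socs1, an inhibitor of JAK kinases, rose in both (1.72 and 1.29), and the phosphatase gene Ptpn11 fell in both (-1.01 and -0.92). Pias2 (0.46) rose and Ptpn6 (-0.79) and Sh2b3 (-0.49) fell in Th17 cells. The call of Pias2 was kept only without the Th0 library M29 or the Th17 library M22, and was lost in the other leave-outs (adjusted p up to 0.091). That of Sh2b3 was lost without Th0 M22, Th0 M29 or Th17 M43 (up to 0.069). In all, 7 of 19 inhibitors passed in Th17 cells (4 higher, 3 lower, median -0.015), 11 with the heading block and 4 without the Th0 library M22, and 6 of 18 in iTreg cells (5 higher, 1 lower, median 0.093), 13 with the heading block. The shares of all genes tested were 19.3% in Th17 and 16.6% in iTreg cells, and 37.8% and 40.9% with the heading block. The Th17 library M43, which stood apart in Foxp3, also held 131 FPKM of Socs3 where the others held 52.5 to 55.7 FPKM, and 54.7 FPKM of Socs2 where the others held 0.731 to 12.9 FPKM. It had the highest Stat4, Stat5a, Stat5b, Jak1 and Jak2 of the Th17 libraries. Without it, 4 members passed in Th17 cells, Stat3, Stat4, Stat5b and Jak3.

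Genes known as targets of a STAT passed in 17 of 24 cases in Th17 cells (14 higher, 3 lower, median 0.89) and in 12 of 21 in iTreg cells (10 higher, 2 lower, median 0.84). Among all genes tested the shares were 19.3% and 16.6%. Cish, Socs2, Il2ra, Il4ra, Il12rb2, Il21 and Il23r also stand in the lists above, so the lists are not separate. All 9 targets of STAT3 were higher in Th17 cells, with a median log2 fold change of 2.97, among them the cytokine genes Il17f (8.64) and Il21 (6.07) and the transcription factor gene Maf (5.46). Most of these genes define Th17 cells, so their rise is no independent measure of the response to Stat3. Il17a, Il17f, Il21 and Il23r had Th0 means of 0.0285, 0.124, 0.109 and 0.062 FPKM. These genes passed the filter on low values only through the Th17 libraries, so they could only be higher. In the iTreg comparison 6 of the 9 were tested, and Il17f passed the filter only through the iTreg libraries. In iTreg cells 5 of 6 STAT3 targets passed, of which 3 rose, Il17f (5.53) and Maf (4.18) included, and 2 fell, Bcl6 (-0.61) and Hif1a (-0.55). The latter calls were each kept in 2 of the 8 fits that left out a library, without Th0 M22 and Th0 M42 for Bcl6 and without Th0 M22 and iTreg M43 for Hif1a, and lost in the others, with adjusted p-values up to 0.091 and 0.086. Targets of STAT5 passed in 2 of 6 cases in Th17 cells (1 higher, 1 lower), where the survival gene Bcl2 (-1.39) fell. With the heading block 3 passed there (1 higher, 2 lower), where 37.8% of all genes did, and the added gene was Cish (-1.04). In iTreg cells 4 of 6 rose, Cish, Socs2, Il2ra and Foxp3. The level of Foxp3 was 75.2 ± 13.5 FPKM against 4.84 ± 2.55 FPKM in Th0 cells (SD, n = 4, log2 fold change 3.81, adjusted p = 0.00013).

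The targets of STAT4 that passed were higher, and those of STAT2 and STAT6 that passed in Th17 cells went in both directions. Of the STAT4 targets, Furin passed in Th17 cells (1 of 3 tested, 2.77), and Furin (2.42), Il18r1 (1.60) and Il18rap (1.32) in iTreg cells (3 of 4 tested), all of them higher while Stat4 was lower. Furin is also known to respond to TGFβ1, which both polarized cultures received along with another cytokine. What raised Furin was not tested. In Th17 cells 3 of 4 targets of STAT2 passed, of which Irf9 (0.87), the partner of STAT2, and Irf7 (0.67) rose and Ifit1 (-1.22) fell. Ifit1, with a Th17 mean of 0.287 FPKM, passed the filter on low values only through the Th0 libraries, so it could only be lower. Irf7 was near the limit of the filter, with means of 0.669 FPKM in Th0 and 1.61 FPKM in Th17 cells. Both targets of STAT6 tested passed there, with Il4ra (2.02) higher and Gata3 (-1.96) lower. In iTreg cells limma called 0 of 3 targets of STAT2 and 0 of 2 of STAT6, with 1 gene of each at an unadjusted p under 0.05, and 1 and 2 were called with the heading block. Of all genes tested, 19.3% passed in Th17 and 16.6% in iTreg cells, and 37.8% and 40.9% with the heading block. These target groups are too small to be set against such shares. Furin, Il18r1, Il18rap, Irf9 and Irf7 were named after their values had been seen.

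**Figure D5:**
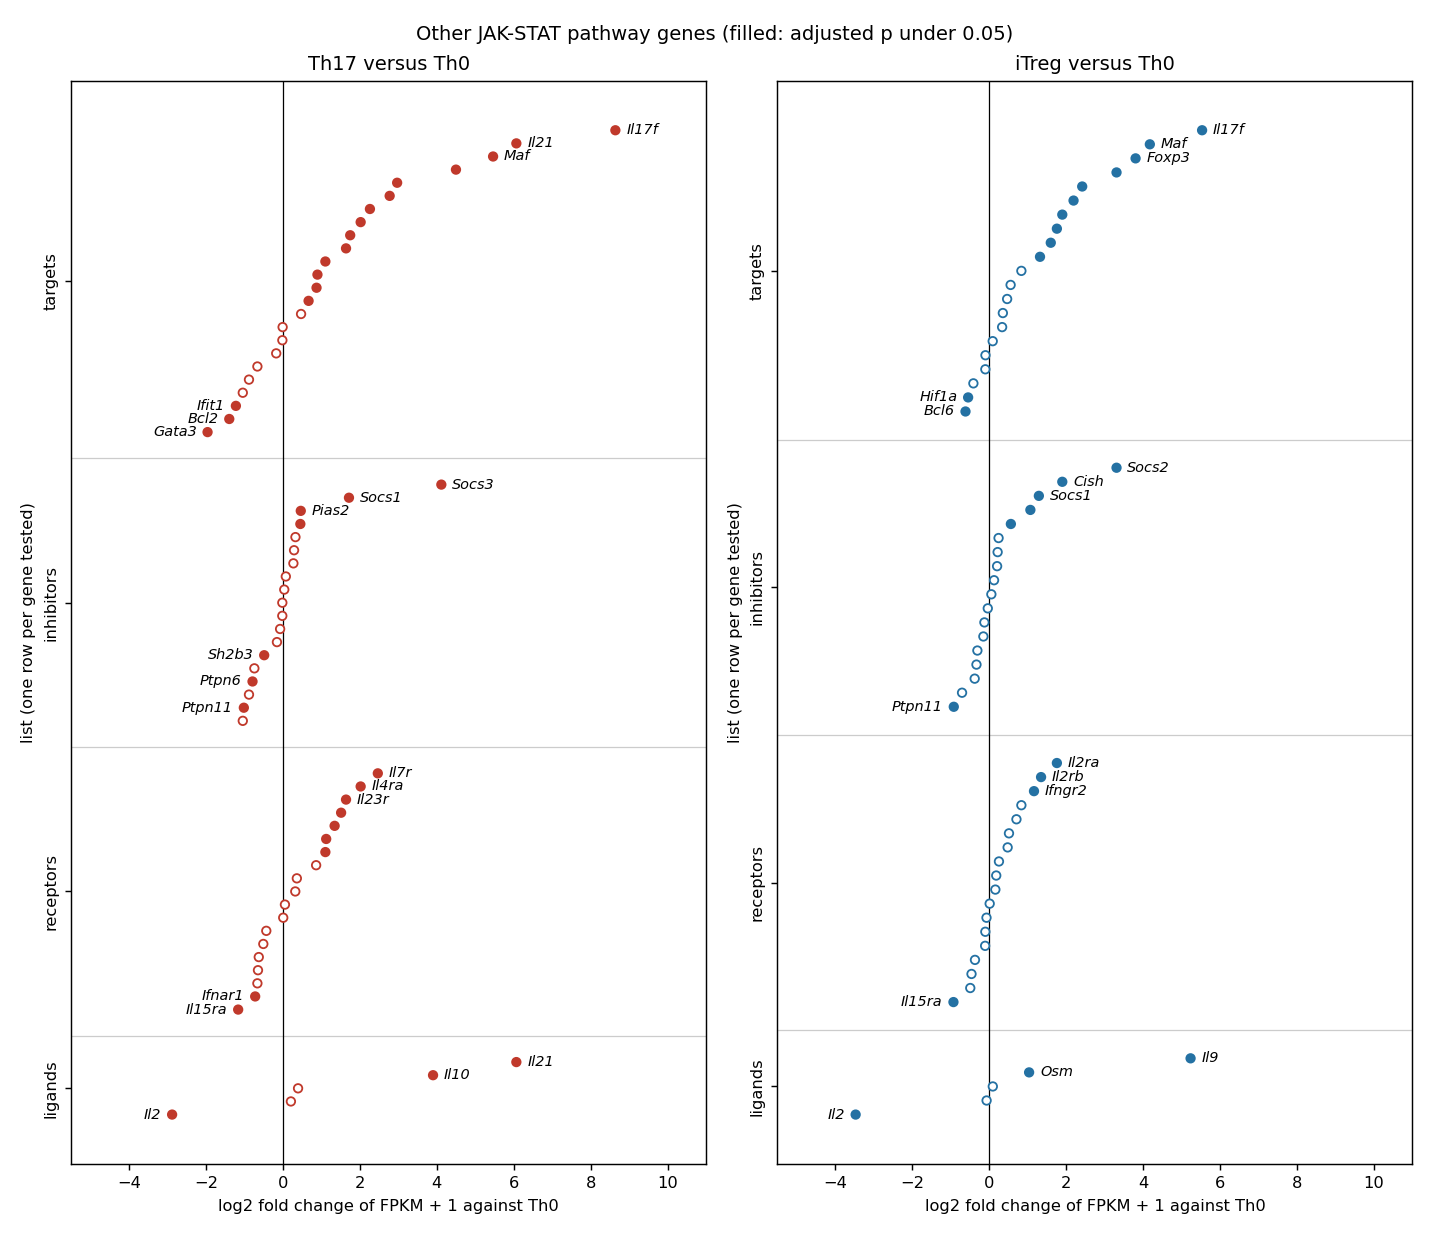
Log2 fold change (x axis, FPKM + 1 against Th0) of the other pathway genes by list, a row per gene tested, for Th17 (left) and iTreg cells (right). Filled points have an adjusted p under 0.05, and the labeled genes are the largest rises and falls among them in each list. Socs3 leads the inhibitors at 4.12 in Th17 and Socs2 at 3.31 in iTreg cells, and Il2 is the lowest ligand in both.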

How the data were processed

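RNA-seq of 12 libraries was analysed, 4 each of Th0, Th17 and iTreg cultures. The authors aligned reads to mm10 with TopHat (submitters' processing notes: TopHat2 2.0.14), counted them on exons with HTSeq without strand and tested counts with edgeR. The authors deposited FPKM values of 8 libraries in each of 2 tables. The FPKM calculation and the gene annotation are not given in the sources used here. Columns with the authors' log fold change, log CPM, likelihood ratio, p-value and FDR were not used. As the tables hold no read counts, counting error is unknown and no intervals are given.

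Per table, genes above 1 FPKM in 4 or more of 8 libraries entered limma 3.58.1 (R 4.3.3) as log2(FPKM + 1), with Benjamini-Hochberg adjustment at 0.05, without a block. Other steps used Python 3.11.15, numpy 2.4.6, scipy 1.17.1 and pandas 2.3.3. The test was checked on simulated data. Exact permutation tests were 2-sided (70 arrangements). Sample titles number 4 experiments with a culture of each group. The main fit, unlike the authors' test, was unpaired, since column headings give no experiment number. Their beginnings were taken to pair the libraries. For like beginnings, deviations from group means correlated across genes at 0.450 to 0.784 (Th17) and 0.662 to 0.769 (iTreg). For unlike ones the ranges were -0.590 to 0.434 (Th17) and -0.576 to 0.248 (iTreg). The fit with this replicate block was therefore an alternative. Others were pseudocounts of 0.1 and 0.5, no filter, limma-trend, median centring, an FDR of 0.01 and leaving out each library. Coordinates are from GENCODE M21. Members and lists were chosen with earlier results of these data known. Named were all members and, per list and comparison, the 3 largest called rises and falls, the 3 genes most like the member with the smallest p, and the culture markers. The values of Il2rg and of Foxp3, Socs2 and Socs3 in single Th17 libraries were singled out after they were seen.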

Additional observations from a re-analysis of the deposited data

Results flagged for a closer look

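The Th0 library M29 stood apart from the other 3 Th0 libraries for 2 members. Its Stat3 level was 56.2 FPKM in the Th17 table and 55.7 FPKM in the iTreg table, with a gap to the nearest library of 0.858 and 0.861 of the whole range. Its Jak1 level was 110 and 109 FPKM, with a gap of 0.849 and 0.852 of the range. Gaps of this size arise by chance in about 1 of 20 groups of 4, and 36 groups were examined. As both tables hold the same Th0 libraries, these are 2 observations and not 4.

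Jak3 lay on opposite sides of the Th0 mean in the polarized cells. Every Th17 library was above the Th0 mean, with a log2 fold change of 0.92, and every iTreg library was below it, with a log2 fold change of -0.33 that did not pass the test (adjusted p = 0.17) and with libraries that overlapped with Th0. The difference between these changes was not tested.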

How the results depend on the processing

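The replicate block on heading beginnings raised the genes called from 1983 to 3882 (Th17) and from 1691 to 4170 (iTreg), members called to 8 and 7, inhibitors called to 11 and 13, and iTreg receptors called to 9. It changed no other call of a member than the 6 named above. At an FDR of 0.01, 995 and 778 genes and 4 Th17 inhibitors were called. Leaving out each library in turn gave 1364 to 2237 genes, 4 to 6 members and 4 to 7 inhibitors in Th17 cells and 1140 to 1521 genes and 4 to 5 members in iTreg cells. The Th17 calls of Stat3, Stat4, Stat5b and Jak3 and all 4 iTreg calls of members remained in each, while that of Stat2 (0.71 to 1.02) was lost in 5. Values near 0 changed sign: Jak1 in Th17 cells (-0.16 to 0.0080) and Stat6 in iTreg cells (-0.048 to 0.035, at 0.00046 without iTreg M43). Of the member fits that left out a library, 130 kept direction and call, 5 lost a call, 4 gained one and 5 changed sign. Pseudocounts of 0.1 and 0.5, no filter, limma-trend and median centring (shifts of -0.036 and -0.021) changed no call of a member. Depth per gene is unknown, so counting error in genes such as Stat4 cannot be given.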
